A study of Mus musculus with 9 samples.

Results

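The genes described here are the neighbours of Bdh1 on mouse chromosome 16, the locus knocked out in 1 of the 2 groups of effector CD8+ T cells compared. They were chosen by position and depth alone. Every gene other than Bdh1 was taken that overlaps the stretch from 5 Mb before to 5 Mb after it (chromosome 16, 26422280 to 36458901, GRCm38, GENCODE M21) and has at least 10 counts in at least 4 of the 9 libraries. Of 212 annotated genes in this stretch, 70 met the rule, against 15076 of the 55471 genes in the count files. They comprise 57 protein-coding genes, 8 processed pseudogenes and 5 genes of other types, with 15 before Bdh1 and 55 after it.

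The RNA came from CD8+ T cells with the OT-I receptor, which recognises an ovalbumin peptide. The control group (Bdh1-WT;shCtrl, n = 4) was wild type for Bdh1 and carried an shRNA against firefly luciferase. The other group (Bdh1-KO;shOxct1, called DKO, n = 5) was a Bdh1 knockout with an shRNA against Oxct1, the enzyme that activates acetoacetate in mitochondria. Both groups were activated in culture through CD3 and CD28 with IL-2, selected for the Ametrine reporter after transduction, and moved into CD45.1 C57BL/6 hosts that were infected with LmOVA, an ovalbumin-expressing Listeria monocytogenes. The donor cells were recovered 7 days after infection by their CD45.2 and Ametrine signals. The labels give no age, do not tie replicates to mice, and do not say how or in which strain the Bdh1 allele was made. The groups differ in the allele, in Bdh1 itself and in the hairpin, and effects of these cannot be told apart here. If replicates share a source, p-values measure only the spread between these libraries.

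A knockout allele made in one strain and bred into another brings along a stretch of the donor chromosome, and genes on that stretch can differ in sequence or expression for reasons unrelated to the targeted gene. A deletion or an inserted cassette can also alter the genes beside it. The stretch around Bdh1 matches in part the human chromosome band 3q29, a gene-dense segment in which deletion or duplication causes a known neurodevelopmental syndrome. It holds housekeeping genes of RNA and membrane biology together with genes used by T cells, among them Dlg1, a scaffold at the T cell receptor contact, Pak2, a kinase of the actin cytoskeleton, and Tfrc, the transferrin receptor.

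The libraries held 45205993 to 59853080 counts in genes, and the mean level of the members ran from 0.196 to 268.3 CPM (counts scaled to library size, here with edgeR's TMM factors). The CD8 T cell markers (4 of 4 over 1 CPM) summed to 4722 to 5935 CPM in control and to 4224 to 4611 CPM in DKO, and Cd8b1 among them fell from 2246 ± 279.8 to 1701 ± 129 CPM (SD, n = 4 and 5, adjusted p 0.0428, edgeR). The myeloid markers (7 of 7 over 1 CPM, led by Ctss) summed to 161.7 to 197.1 and 113.6 to 123.3 CPM, so these sums did not overlap. The sums of the CD8 T cell markers did not overlap either. Ctss, Itgam and Cd68 make up most of the myeloid sum, at 81.1 ± 8.21, 58.9 ± 19.1 and 29.1 ± 4.97 CPM in control against 51.2 ± 5.83, 38.1 ± 5.39 and 16.8 ± 2.51 CPM (SD, n = 4 and 5). Ctss and Cd68 passed the threshold (adjusted p 0.00734 and 0.0138, edgeR), and Itgam did not (0.148). Lyz2, Csf1r and Adgre1 were low, with means of 2.43, 1.84 and 1.04 CPM in control against 5.84, 2.37 and 1.01 CPM in DKO, and none of them passed the threshold. B cell markers (2 of 5 over 1 CPM, led by Ighm) summed to 178.9 to 263.9 and 186.7 to 209.2 CPM. CD4 T cell markers (1 of 3, Cd40lg) summed to 14.3 to 24.2 and 22.8 to 34.4 CPM, and erythroid and platelet markers (5 of 5, led by Ppbp) to 10.3 to 33.9 and 15.9 to 53.3 CPM. Neutrophil markers (0 of 5) summed to at most 0.0619 and 1.18 CPM, with S100a8, Mmp8 and Retnlg at 0 in every control. In bulk RNA, fewer cells of a type and less RNA per cell cannot be told apart, and the part of these markers in the results below was not tested.

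Control replicate 1 stood apart from the other libraries in this stretch. Among the 43 flanking genes of at least 10 CPM on average, it was the lowest of all 9 libraries for 24 genes and the highest for 10. Its level relative to the mean of the other 3 controls was lower for genes with more annotated exon sequence (Spearman rho -0.71 across these 43 genes, a description of 1 library, since genes are not replicates). The same measure for control replicates 2, 3 and 4, each relative to the mean of the other 3 controls and so with control replicate 1 in the base, gave rho 0.58, 0.72 and 0.13. The 21 longer genes had a median log2 ratio of -0.69, and the 22 shorter ones a median of 0.09. Atp13a3, a polyamine transporter of endosomes with 9.94 kb of exon, was at 49.4 CPM in control replicate 1 and at 106 to 150.0 CPM in the other controls. The ribosomal protein gene Rpl35a, with 3.53 kb, was at 54.5 CPM there against 34.1 to 35.3 CPM. The median coefficient of variation of the 43 genes was 18.7% over the controls, 8.55% without control replicate 1 and 6.42% in DKO. The values of the called genes and of several neighbours are therefore also given without this library.

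**Figure D1:**
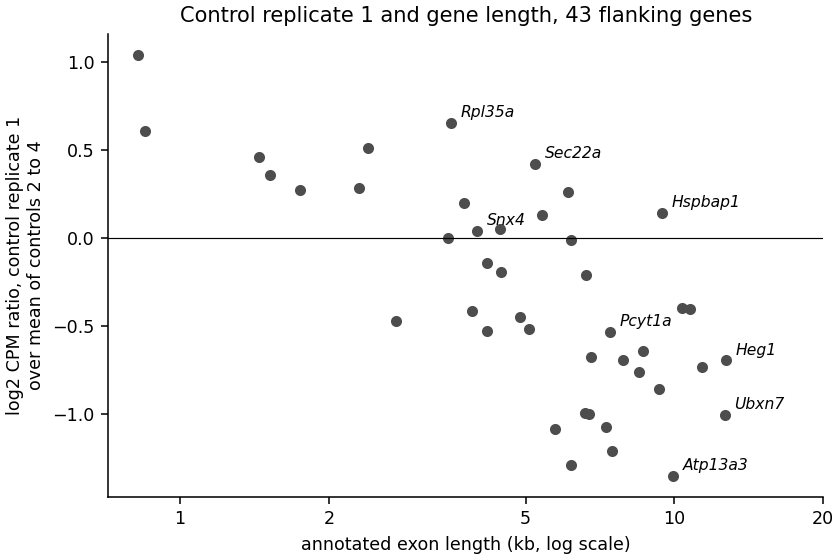
Each point is 1 of the 43 flanking genes of at least 10 CPM, with annotated exon length in kb (log scale) on the x axis and the log2 ratio of CPM in control replicate 1 to the mean of control replicates 2 to 4 on the y axis. Long genes such as Atp13a3, Ubxn7 and Heg1 lie below 0, Sec22a and Rpl35a lie above it, and the ratio tends to be lower for longer genes.

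Bdh1 itself was examined first. It encodes the mitochondrial enzyme that interconverts beta-hydroxybutyrate and acetoacetate (plus strand, 31422280 to 31458901). It was at 25.1, 35.1, 30.2 and 31.5 CPM in the 4 control libraries and at 11.6, 11.6, 11.4, 8.98 and 9.62 CPM in the 5 DKO libraries. These values did not overlap, and DKO was at 34.9% of control. The log2 fold change was -1.52 with an SE of 0.13 (adjusted p 1.36e-04 by the quasi-likelihood test of edgeR). The strand columns sum to 1.19 times the unstranded count of Bdh1, and with the columns summed the log2 fold change was -1.51. The exact permutation p was 0.0159 (two-sided), the smallest that the 126 relabellings allow.

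Around this decrease, 3 of the 69 tested members were called at the adjusted threshold of 0.05 in edgeR, or 4.35%, against 2.83% of all 14918 genes tested. Pcyt1a and Heg1 rose in DKO and Sec22a fell. Control and DKO libraries did not overlap in CPM for 8 of the 69 (11.6%, against 8.7% of all genes), and 10 had an unadjusted p under 0.05 (14.5%, against 16% of all genes). In DKO, 38 flanking genes were higher and 31 lower, with a median log2 fold change of 0.04 (-0.02 without control replicate 1), against -0.01 over all genes. The median size of the change in either direction was 0.16, and 0.18 over all genes. Each of these shares lies near its background. Whether a gene was called depended on which library was left out. There were 4 without control replicate 1, 2 or 3, 0 without control replicate 4, DKO replicate 1 or DKO replicate 3, 1 without DKO replicate 2 or 5, and 2 without DKO replicate 4. The sizes moved less with a DKO library left out, with log2 fold changes of 0.565 to 0.625 for Pcyt1a, 0.698 to 0.755 for Heg1 and -0.735 to -0.641 for Sec22a. With each of the 9 libraries left out, controls included, the ranges were wider. They were 0.463 to 0.66 for Pcyt1a, 0.565 to 0.844 for Heg1 and -0.77 to -0.585 for Sec22a. Calls over all genes also became fewer with a DKO library left out, at 1.22 to 1.9%. Without control replicates 1, 2, 3 and 4, 4.93%, 2.07%, 2.25% and 1.23% of all genes were called. The DESeq2 Wald test called 5 of the 69 and limma-voom 7, where these tests called 7.1% and 6.68% of all genes.

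**Figure D2:**
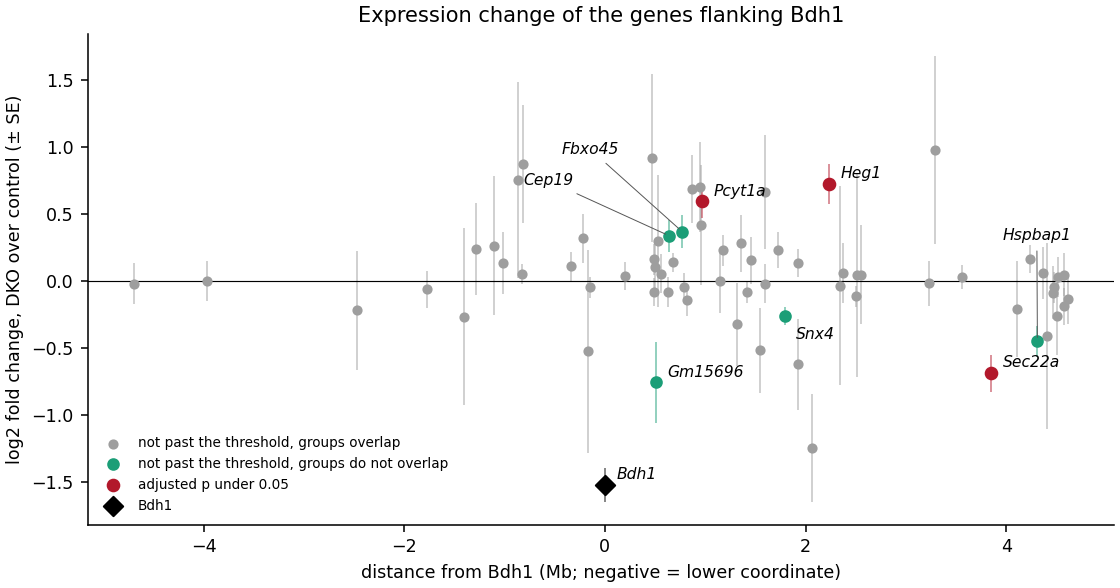
Each point is a tested gene, with its distance from Bdh1 in Mb on the x axis and its log2 fold change of DKO over control with its standard error on the y axis. The 3 genes past the threshold lie 0.97 to 3.85 Mb after Bdh1 among neighbours that did not pass, and Bdh1 lies at -1.52.

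The promoters of the 3 called genes are shown as the regulatory sequence next to each change. Each is the stretch before the annotated start, read along the strand of the gene, from the RefSeq promoter table (GRCm38.p6), and holds no transcribed base of the gene. Capitals mark GC boxes (GGGCGG on either strand), a motif bound by Sp family factors and common in promoters of broadly expressed genes. The stretches are chr16:32430671-32430920 for Pcyt1a (plus strand), chr16:33684216-33684369 for Heg1 (plus strand) and chr16:35363919-35364168 for Sec22a (minus strand).
Pcyt1a: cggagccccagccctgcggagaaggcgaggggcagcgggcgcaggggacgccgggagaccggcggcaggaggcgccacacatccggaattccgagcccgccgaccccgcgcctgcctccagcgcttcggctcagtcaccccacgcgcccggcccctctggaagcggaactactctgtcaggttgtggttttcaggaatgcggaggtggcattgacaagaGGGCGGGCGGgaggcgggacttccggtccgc
Heg1: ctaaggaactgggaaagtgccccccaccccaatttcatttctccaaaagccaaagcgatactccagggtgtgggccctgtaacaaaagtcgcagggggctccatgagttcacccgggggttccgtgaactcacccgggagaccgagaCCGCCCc
Sec22a: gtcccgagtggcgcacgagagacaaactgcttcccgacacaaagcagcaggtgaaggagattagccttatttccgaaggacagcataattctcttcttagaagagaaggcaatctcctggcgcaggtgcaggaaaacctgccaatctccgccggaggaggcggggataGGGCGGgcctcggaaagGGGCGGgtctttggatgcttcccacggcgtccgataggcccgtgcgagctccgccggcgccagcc
They hold 2, 1 and 2 GC boxes, the 2 of Pcyt1a overlapping, and are 71.6%, 59.1% and 60.8% G or C. The stretch of Heg1 has 154 bases and the other 2 have 250. Pcyt1a has 3 starts in the table, and the stretch before 1 of them is shown. Of the 70 members, 52 have an entry in the table, with 68 promoters of 250 bases before and 50 after a start. A GC box lies in 55.9% of these 68 promoters and in 35.7% of all 32851 in the table. The members passed the count rule and the table is not limited to genes that pass it. These shares are therefore not a like comparison, and no trait of this stretch is read from them. An interferon response element (GAAA, any 2 bases, GAAA, on either strand) lies in 4.41% of the 68 and 3.44% of all, in Il1rap, Mylk and 0610012G03Rik, none of them called. An E2F site (TTTCCCGC on either strand) lies in 0 of the 68 and in 1.07% of all. A match describes letters, not binding, and no match says only that these letters are not in the window.

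Pcyt1a rose in DKO. It encodes the rate-limiting enzyme of the CDP-choline pathway, which makes the membrane lipid phosphatidylcholine (ENSMUSG00000005615.15, plus strand, 32430921 to 32475070, 0.97 Mb after Bdh1). It was at 16, 24.2, 22.6 and 22.5 CPM in the control libraries. The DKO libraries were at 32.5, 33.6, 31.3, 29.1 and 34.2 CPM, all above every control. The increase was 1.51-fold, or 0.59 on the log2 scale with an SE of 0.12 (adjusted p 0.0291, edgeR), and 0.46 without control replicate 1 (adjusted p 0.0093). It lost the threshold without control replicate 4 or DKO replicates 1, 2, 3 or 5 (adjusted p 0.0641 to 0.0761). Its nearest tested neighbours, Tctex1d2 at 1.82 kb and Tfrc at 133.8 kb, had log2 fold changes of 0.42 and 0.00 and did not pass (adjusted p 0.703 and 0.997). The strand columns sum to 1.15 times the unstranded count of Pcyt1a, which overlaps the antisense gene 2210020O09Rik, and the call held with the columns summed (0.55 on the log2 scale).

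Heg1 rose in DKO. It encodes a transmembrane receptor that holds the KRIT1 protein at cell contacts, best known from the heart and vessel wall (ENSMUSG00000075254.12, plus strand, 33684370 to 33771576, 2.23 Mb after Bdh1). The control libraries were at 18.6, 29.9, 33.9 and 26.6 CPM and the DKO libraries at 44.6, 47.9, 45.4, 46.7 and 40.4 CPM. The lowest DKO library lay above the highest control. The increase was 1.65-fold, or 0.72 on the log2 scale with an SE of 0.15 (adjusted p 0.0278, edgeR), and 0.57 without control replicate 1 (adjusted p 0.00667). It lost the threshold without control replicate 4 or DKO replicates 1, 2, 3 or 4 (adjusted p 0.0617 to 0.0815). The gene before it at 20.2 kb, Slc12a8, of the cation-chloride cotransporter family, had the lowest log2 fold change of the 69 without passing the threshold. Slc12a8 was at 1.36, 0.438, 1.28 and 1.62 CPM in the control libraries and at 0.573, 0.22, 0.546, 0.623 and 0.508 CPM in the DKO libraries, which overlap through control replicate 2. Its log2 fold change was -1.25, with an SE of 0.40 and an adjusted p of 0.142 in edgeR, and it was called when control replicate 2 was left out. Muc13, 22.5 kb on the other side of Heg1, averaged only 0.29 and 0.279 CPM. The strand columns sum to 1.125 times the unstranded count of Heg1, and its call held with the columns summed (0.68 on the log2 scale).

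Sec22a fell in DKO. It encodes a SNARE-family protein of traffic between the endoplasmic reticulum and the Golgi (ENSMUSG00000034473.14, minus strand, 35311131 to 35363918, 3.85 Mb after Bdh1). The control libraries were at 19.1, 13.8, 12.8 and 16.1 CPM. The DKO libraries were at 8.24, 9.94, 9.07, 10.7 and 9.96 CPM, all below every control. DKO was at 62% of control, or -0.69 on the log2 scale with an SE of 0.14 (adjusted p 0.0251, edgeR), and -0.59 without control replicate 1 (adjusted p 0.0207). It lost the threshold without control replicate 4 or DKO replicates 1, 3 or 5 (adjusted p 0.0506 to 0.075). Its nearest tested neighbours lie 202 and 209.4 kb away. They are Hacd2, an enzyme of very long chain fatty acid elongation, at 24.4 ± 1.95 against 24.9 ± 1.2 CPM (SD, n = 4 and 5), and the pseudogene Gm5963, with log2 fold changes of 0.03 and -0.21.

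**Figure D3:**
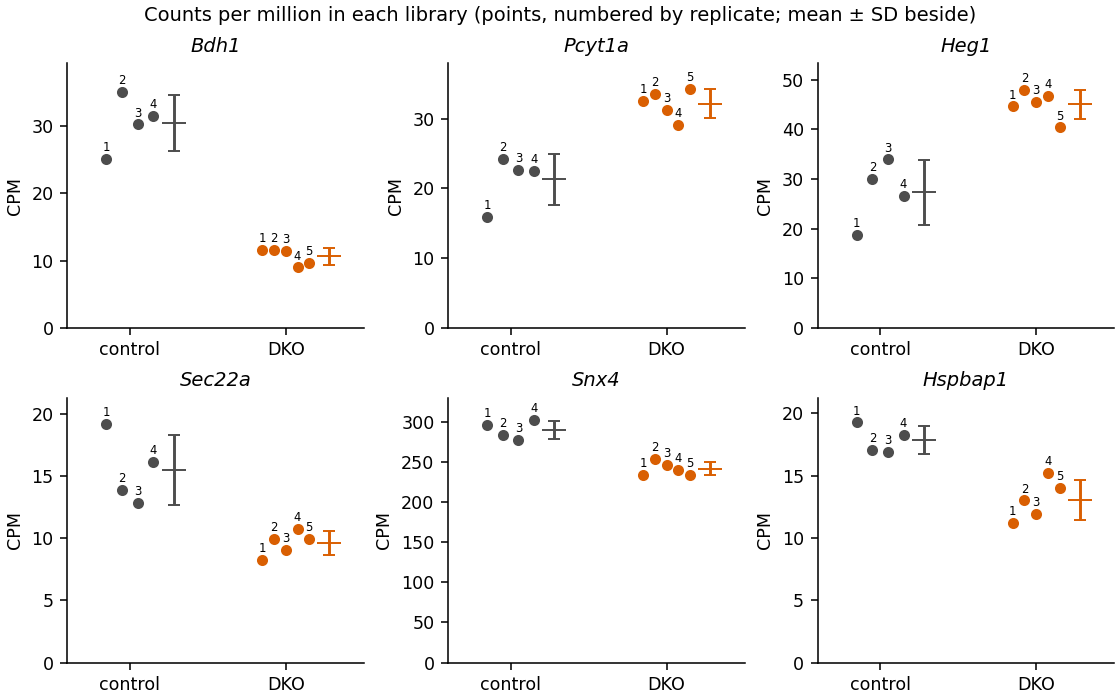
CPM of Bdh1 and 5 flanking genes in each library (y axis), with control and DKO on the x axis, points numbered by replicate and the mean ± SD beside them. In all 6 panels the control and DKO points do not overlap, and control replicate 1 is the lowest control for Pcyt1a and Heg1 and the highest for Sec22a.

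Control and DKO libraries did not overlap for 5 further members that missed the threshold. Snx4, a sorting nexin of endosome recycling and autophagy, was at 296, 284, 278 and 302 CPM in the control libraries. The DKO libraries were at 234, 254, 247, 240.3 and 234 CPM, which is 83.3% of control on average. Its log2 fold change of -0.26 had an SE of 0.07 and an adjusted p of 0.0593 in edgeR. Snx4 passed without control replicate 1 (0.017), with DESeq2, with limma-voom, with 1 CPM required in 4 libraries and with summed strands. Hspbap1, which encodes a protein that binds the small heat shock protein HSPB1, was at 19.3, 17.1, 16.9 and 18.3 CPM in the control libraries and 11.2, 13, 11.9, 15.2 and 14 CPM in the DKO libraries. Its log2 fold change was -0.45, with an SE of 0.11 and an adjusted p of 0.0634 in edgeR, and it passed with DESeq2, with limma-voom and with 1 CPM required in 4 libraries. Fbxo45, a substrate receptor of a ubiquitin ligase, was at 26.7 to 43.2 CPM in control against 44.2 to 46.7 CPM (adjusted p 0.151, edgeR), with a log2 fold change of 0.37, and 0.24 without control replicate 1. Cep19, a protein of the centrosome and cilium base, was at 13.1 to 18.6 against 19.3 to 21.9 CPM (adjusted p 0.177, edgeR) and passed with limma-voom. The pseudogene Gm15696, at 0.49 to 0.701 against 0.217 to 0.409 CPM, had an adjusted p of 0.25 in edgeR, and as a processed pseudogene it may share reads with its parent gene.

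**Figure D4:**
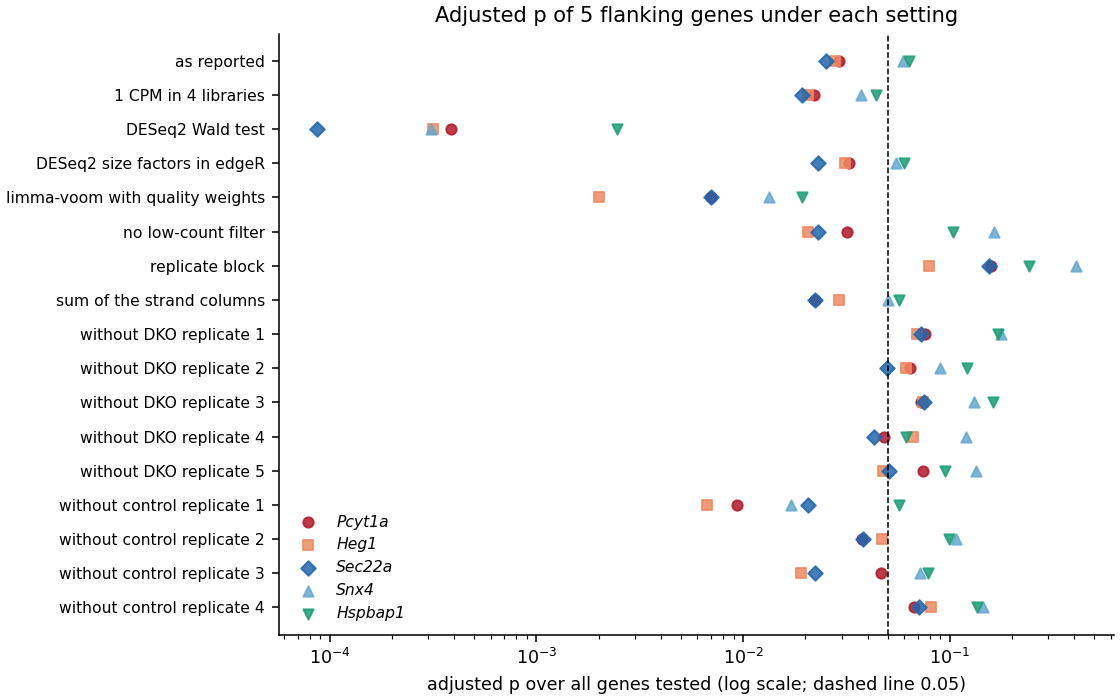
Adjusted p over all genes tested (x axis, log scale) for 5 flanking genes as reported and under each alternative (y axis), with a dashed line at 0.05. Pcyt1a, Heg1 and Sec22a sit between 0.0251 and 0.0291 as reported and lie to the right of the line under the replicate block and under several of the fits with 1 library less.

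The 5 tested members nearest to Bdh1 on each side included no call in edgeR, DESeq2 or limma-voom and none with an unadjusted p under 0.05. Over all genes, 2.83%, 7.1% and 6.68% were called in these tests, and 16% had an unadjusted p under 0.05. DESeq2 gave no adjusted p for Gm41442 and Pigz. So few genes cannot show a difference from these shares. Gm15696, described above, lies just beyond these nearest members at 511 kb after Bdh1, with an unadjusted p of 0.0292 (edgeR) and no overlap of the groups. Before Bdh1, Ppp1r2, a regulator of protein phosphatase 1 at 147 kb, averaged 46.7 ± 3.35 against 45.2 ± 1.06 CPM (SD, n = 4 and 5), and the 95% interval of its log2 fold change ran from -0.22 to 0.12. Acap2, a GTPase-activating protein of endosomes at 221 kb, was at 54.1, 121, 104 and 100.2 CPM in the control libraries and 112 to 126 CPM in DKO. Its log2 fold change was 0.32, and 0.11 without control replicate 1. Xxylt1, a xylosyltransferase that extends sugars on Notch, had a log2 fold change of 0.11 (interval -0.13 to 0.34). Fam43a (0.651 and 1.2 CPM) and the noncoding Gm41442 (0.464 and 0.32 CPM) were low, with intervals of -0.10 to 1.84 and -2.18 to 1.12.

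After Bdh1, the nearest tested member was Dlg1 at 205 kb. Dlg1 was at 57.9, 77.1, 78.4 and 74.1 CPM in the control libraries and at 76.4, 80.9, 73.5, 66 and 71.7 CPM in the DKO libraries, which overlap. Its log2 fold change was 0.04 (95% interval -0.19 to 0.26), and -0.07 without control replicate 1. The cap-binding gene Ncbp2 (-0.08, interval -0.32 to 0.15), the SUMO protease gene Senp5 (0.10, -0.33 to 0.53, and -0.11 without control replicate 1) and 0610012G03Rik (0.16, -0.10 to 0.42) lie at 490.0, 501 and 488 kb. Pigz, a mannosyltransferase of GPI anchor synthesis, averaged 0.188 and 0.36 CPM. For 7 of these 10 neighbours the interval lies within 1 log2 unit of 0 in both directions, whereas that of Bdh1 ran from -1.79 to -1.25.

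A list of 20 genes from the region that matches human 3q29, other than Bdh1, does not cover the whole band. Of these 20, 15 are members. Of these 15, 1 passed the threshold in edgeR (Pcyt1a, higher), 4 had an unadjusted p under 0.05, and 11 were higher in DKO, with a median log2 fold change of 0.10. Over all genes tested, 2.83% passed, 16% had an unadjusted p under 0.05 and 7246 of 14918 were higher. Of the 15, 3 did not overlap between the groups, DESeq2 called 1 and limma-voom 2. Over all genes these shares were 8.7%, 7.1% and 6.68%, and nothing particular to this list is read from these counts. Ubxn7, an adaptor of the p97 segregase, was at 11.8, 28.5, 27.7 and 14.7 CPM in the control libraries and 29.6, 35.8, 27.6, 43.4 and 29.6 CPM in the DKO libraries. DKO replicate 3 lay just below control replicates 2 and 3, so the groups overlapped, and its log2 fold change of 0.68 (SE 0.26) had an adjusted p of 0.214. Pak2 was at 182, 287, 332 and 250.4 CPM in the control libraries and 252 to 299.7 CPM in DKO (0.05 on the log2 scale, interval -0.27 to 0.37; -0.10 without control replicate 1). Tfrc was at 5.47, 12.2, 15.3 and 12.5 CPM in the control libraries and 9.84 to 14.4 CPM in DKO (0.00, interval -0.53 to 0.53). Rnf168, a ubiquitin ligase of DNA break signalling, and Pigx, of GPI anchor synthesis, had log2 fold changes of -0.14 and -0.08.

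The other 5 listed genes of this region fell short of the count rule. Tm4sf19, which lies between Ubxn7 and Pcyt1a and is singled out after its values were seen, had 2 counts in control replicate 1 and 0 in the other controls, and 8, 8, 7, 3 and 3 counts in DKO replicates 1 to 5. Meltf had 6 counts in control replicate 4 and 0 elsewhere, Slc51a had 2 counts over control and 6 over DKO, Smco1 14 and 12, and Zdhhc19 had 0 counts in every library. Counts this low were not tested.

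Members were next grouped by role. Over all genes, 2.83% were called in edgeR, 7.1% in DESeq2 and 6.68% in limma-voom. Of all genes, 16% had an unadjusted p under 0.05 and 8.7% did not overlap between the groups. The 12 genes of RNA, ribosome, chromatin and nuclear transport included 0 calls in edgeR (with 1 unadjusted p under 0.05, 1 call in DESeq2 and 1 in limma-voom, in each case Hspbap1), with 5 higher and 7 lower. Kpna1, an importin alpha, was at 112, 186, 217 and 163 CPM in the control libraries and 166 to 188 CPM in DKO (0.03 on the log2 scale, and -0.14 without control replicate 1). Zfp148, a zinc finger transcription factor, was at 103 to 143 against 129 to 156 CPM, and Lsg1, a GTPase of ribosome assembly, at 79.3 to 88.9 against 82.7 to 93 CPM. The interval of Lsg1 ran from -0.11 to 0.21, and that of Umps, the enzyme that completes uridine monophosphate synthesis, from -0.28 to 0.06. Fyttd1, an adaptor of mRNA export, averaged 77.5 against 73.1 CPM.

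The 13 genes of kinases, scaffolds, adhesion and cytoskeleton included 1 call in edgeR, Heg1, with 10 higher and 3 lower and a median log2 fold change of 0.06. Over all genes, 2.83% were called and 7246 of 14918 were higher. Tnk2, a kinase downstream of CDC42, averaged 17.2 ± 2.03 against 20.2 ± 1.81 CPM (SD, n = 4 and 5; log2 fold change 0.23, adjusted p 0.358, edgeR). The integrin gene Itgb5 averaged 4.49 and 4.68 CPM (0.06, interval -0.43 to 0.55). Lmln, a leishmanolysin-like peptidase gene, was at 0.784, 0.508, 3.05 and 1.09 CPM in the control libraries and 1.88 to 2.27 CPM in DKO. It did not pass as reported (adjusted p 0.493, edgeR), and was called without control replicate 3 and by limma-voom. The actin regulators Kalrn and Mylk averaged under 1 CPM in both groups. The strand columns of Lrch3 and Iqcg sum to 2.45 and 59 times the unstranded count, since each shares positions with a gene on the other strand, so their values are uncertain. Of all members, 12 have a ratio over 1.1. Besides Lrch3, Iqcg, Pcyt1a and Heg1 these are Wdr5b (1.725), Mylk (1.68), Fam162a (1.3), Hacd2 (1.2), Umps (1.18), Il1rap (1.15), Dtx3l (1.13) and Parp9 (1.13). The unstranded values of these genes also leave out shared reads.

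The 10 genes of mitochondria, iron, lipid and glycan included 1 call in edgeR, Pcyt1a, with 6 higher and 4 lower. Over all genes, 2.83% were called in edgeR. Opa1, the fusion GTPase of the inner mitochondrial membrane, was at 55.2, 95.7, 90.6 and 80.7 CPM in the control libraries and 73.6 to 82.3 CPM in DKO (-0.06, interval -0.36 to 0.23). Of 9 fusion and fission genes elsewhere in the genome, 0 passed in edgeR and 4 had an unadjusted p under 0.05 (16% of all genes did). Of the 9, 7 were lower and 2 higher. DESeq2 and limma-voom each called 1 of the 9, against 7.1% and 6.68% of all genes. Of 10 iron genes elsewhere, 1 passed in edgeR. This was Aco1, the cytosolic aconitase that also binds iron-responsive RNA, which rose from 43.2 ± 5.73 to 64.6 ± 3.58 CPM (SD, n = 4 and 5, adjusted p 0.0126, edgeR). Osbpl11, an oxysterol-binding protein gene, was at 56.6 to 84.9 against 71.7 to 96.4 CPM (0.23, adjusted p 0.426). Fam162a, a small mitochondrial protein gene, was at 35.6 CPM in control replicate 1, 21.8 to 24.1 CPM in the other controls and 21.5 to 24.8 CPM in DKO.

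The 9 genes of membrane traffic, autophagy, transport and protein folding included 1 call in edgeR, Sec22a, and 5 with an unadjusted p under 0.05, namely Sec22a, Snx4, Slc12a8, Fbxo45 and Ubxn7. Over all genes these shares were 2.83% and 16%. DESeq2 and limma-voom each called 2 of the 9, against 7.1% and 6.68% of all genes. Control and DKO libraries did not overlap for 3, against 8.7% of all genes. The 9 genes did not share a direction, since 5 were higher and 4 lower. Rubcn, an inhibitor of autophagosome maturation, was at 17.6, 42, 42.9 and 36.9 CPM in the control libraries and 37 to 45.6 CPM in DKO (0.28, adjusted p 0.566). Dirc2, a lysosomal membrane transporter gene, was at 26.1 to 31.9 against 28.9 to 37.2 CPM. Ccdc50, an adaptor in ubiquitin signalling, averaged 97.6 and 97.4 CPM.

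The 5 tested genes of cytokine receptors and secreted or surface proteins included 0 calls in edgeR, DESeq2 or limma-voom and 0 with an unadjusted p under 0.05. Il1rap, the shared chain of the IL-1 and IL-33 receptors and the member farthest before Bdh1 (4.69 Mb), was at 19.1, 30.3, 35.2 and 29.9 CPM in the control libraries and 25.6 to 31 CPM in DKO. Nrros, a membrane protein that holds latent TGF-beta and is known from microglia and other myeloid cells, was at 163 to 187 against 183 to 199.8 CPM (0.14, adjusted p 0.39), while the summed myeloid markers were lower in DKO. Gp5, a platelet glycoprotein gene, was at 5.09, 0.998, 1.66 and 1.02 CPM in the control libraries and 4.33, 1.22, 2.75, 1.58 and 3.26 CPM in DKO, and the summed platelet and erythroid markers also overlapped between the groups. The mucin gene Muc20 averaged 3.46 and 2.76 CPM. A further 14 genes of this list fell short of the count rule, among them Csta1, Stfa1, Stfa2 and Stfa3, stefin protease inhibitors known from neutrophils, with 0 counts in every library.

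Parp14, Dtx3l and Parp9, a cluster 4.37 to 4.48 Mb after Bdh1, are interferon-induced genes of ADP-ribosylation, and Dtx3l encodes the ubiquitin ligase partner of PARP9. Parp9 was at 79.3, 102, 117 and 105 CPM in the control libraries and 94.2, 114, 93.5, 98.4 and 88.4 CPM in the DKO libraries. Dtx3l was at 54.9, 118, 127 and 104 CPM in the control libraries and 84.2 to 107 CPM in DKO, and Parp14 at 39, 62.6, 93.6 and 55.9 and 57.1 to 70.6 CPM. All 3 overlapped between the groups. The log2 fold changes of Parp9, Dtx3l and Parp14 were -0.05, -0.09 and 0.06, with 0 calls in edgeR, DESeq2 or limma-voom and 0 unadjusted p under 0.05.

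The remaining 18 members belong to no role list, and 1 of them, the pseudogene Hmgb1-ps6, fell below edgeR's count filter. Of the 17 tested, 0 passed in edgeR, 2 had an unadjusted p under 0.05 (Cep19 and Gm15696), DESeq2 called 0 and limma-voom 1 (Cep19). Of all 70 members, 19 averaged under 1 CPM, and for such genes the errors were wide, as for Mylk at 0.97 (SE 0.70) and Tmem44 at 0.75 (SE 0.73). At the edge of the count rule, 4632428C04Rik and Hmgb1-ps6 reached 10 counts in exactly 4 libraries, with 2 to 21 and 6 to 16 counts. Just outside it, 2210020O09Rik, Gm15743, Gm15829 and Gm49713 reached 10 counts in 3 libraries. Of these, 2210020O09Rik, antisense to Pcyt1a, had 2 to 7 counts a library in control and 7 to 15 in DKO. Gm15743, antisense to Bdh1, had 26 counts over control and 39 over DKO. Without strand, reads of an antisense gene and its partner cannot be told apart.

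Per kb of annotated exon, the highest level was that of Snx4, at 72.8 CPM per kb in control and 60.7 in DKO. Nrros (42 and 46.2), Pak2 (38.7 and 40.1), Fam162a (31 and 27.1) and 0610012G03Rik (30.1 and 33.6) came next in control. The called genes were lower, at 2.88 and 4.34 CPM per kb for Pcyt1a, 2.14 and 3.54 for Heg1, and 2.96 and 1.84 for Sec22a. Bdh1 was at 7.84 CPM per kb in control and 2.73 in DKO.

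Along the chromosome, the 15 members before Bdh1 included 0 calls in edgeR, DESeq2 or limma-voom, against 2.83%, 7.1% and 6.68% of all genes. They included 0 with an unadjusted p under 0.05 and 0 without overlap of the groups, against 16% and 8.7% of all genes. The 54 tested members after Bdh1 included the 3 calls and the 8 without overlap (5.56% and 14.8%, against 2.83% and 8.7% of all genes). The difference between the sides was not tested. Within 1 Mb on either side, 1 of 25 tested members was called in edgeR and the median size of change was 0.30. Within 2 Mb these were 1 of 43 and 0.24, and within 10 Mb 6 of 122 and 0.15. Over all genes, 2.83% were called and the median size was 0.18. Several members within 1 Mb averaged under 1 CPM with wide errors, such as Tmem44, Gm41442 and Pigz (SE 0.729, 0.755 and 0.628). Among flanking genes of at least 10 CPM the median size was 0.11. The series is not read as a trend with distance. After Bdh1, the successive 1 Mb bins held 1 of 18, 0 of 13, 1 of 7, 1 of 4 and 0 of 12 calls, with median log2 fold changes of 0.15, 0.00, 0.05, 0.01 and -0.11. In the second and the fifth bin, with 0 calls in edgeR, 1 gene each had an unadjusted p under 0.05, DESeq2 called 1 each, and limma-voom called 2 and 1. The bins hold too few genes to judge a trend, and none was tested.

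The rest of chromosome 16 gave 8 calls among 383 tested genes (2.09%), with a median size of change of 0.15. A window of the same rule around Oxct1 on chromosome 15, whose RNA was targeted by the hairpin and not by an allele, held 29 tested genes. Of these, 0 were called in edgeR, 8 (27.6%) had an unadjusted p under 0.05 and 6 (20.7%) did not overlap between the groups, against 16% and 8.7% of all genes. DESeq2 and limma-voom each called 2 of the 29, against 7.1% and 6.68% of all genes. Among genes of at least 10 CPM, 3 of 43 flanking genes (6.98%) and 3.1% of all 8174 such genes were called. Their median sizes of change were 0.11 and 0.13, and the 90th percentiles 0.43 and 0.34. The largest size among these 43 was 0.72, that of Heg1. The 95% interval of the log2 fold change lay within 1 unit of 0 for 47 of the 69 flanking genes, and for 41 of the 43 at 10 CPM or more.

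**Figure D5:**
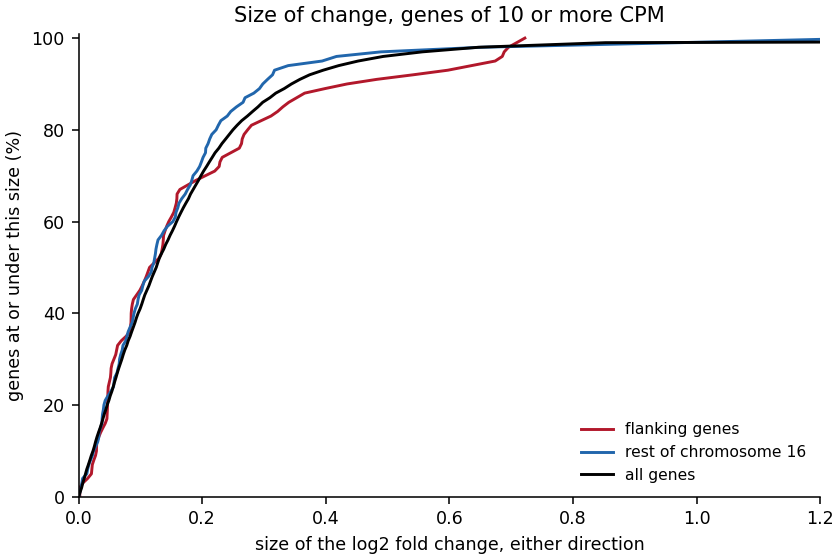
Share of genes (y axis, %) at or under a given size of log2 fold change in either direction (x axis), for genes of at least 10 CPM among the flanking genes, on the rest of chromosome 16 and among all genes tested. The 3 curves run close together up to the median, at 0.11 to 0.13, and at the 90th percentile the flanking genes are at 0.43 against 0.30 and 0.34.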

How the data were processed

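RNA of 9 libraries was measured, 4 control and 5 DKO. The deposited values are raw counts per gene in STAR's layout, unstranded and for each strand. Per the submitters' processing notes, Trim Galore 0.6.0, STAR 2.7.8a and mm10 were used; the annotation is not named there. Per the labels' protocols, library kits were Takara Smartseq v4 and Nextera Flex. The first strand column held 49.9 to 50.1% of strand counts, so unstranded counts were used, which leave out reads shared by overlapping genes (ambiguous, 4.97 to 5.31% of reads). Multimapping reads (5.8 to 6.79%) are left out too, so near-identical copies such as pseudogenes lose reads, as are unmapped reads (10.3 to 16.7%, highest in control replicate 1) and reads in no feature (4.01 to 5.2%).

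Of 55471 gene IDs, 55230 matched GENCODE M21 without the version. The test was that of edgeR 4.0.16 under R 4.3.3 (robust quasi-likelihood, TMM factors 0.987 to 1.03, filterByExpr with minimum count 10 and total 15) over 14918 genes, with Benjamini-Hochberg adjustment at 0.05. SE and 95% intervals were derived from that fit. Alternatives used DESeq2 1.42.0, limma 3.58.1 (voom with quality weights), other scaling, filters, strands and windows, a replicate block, and each library left out. The fits were tested on simulated data. Members, lists and tests were chosen with earlier results of these data known. Named genes were Bdh1, members past the threshold, members whose groups do not overlap, the 5 nearest on each side, the 5 of highest CPM, and genes of the role lists. Some results that this rule would name are not reported here. The GC box and the level of 10 CPM were added after seeing the data. Tables and figures used Python 3.11.15, numpy 2.4.6, pandas 2.3.3, scipy 1.17.1 and matplotlib 3.10.9.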

Additional observations from a re-analysis of the deposited data

Results flagged for a closer look

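For Bdh1 and the 22 named flanking genes, 46 sets of CPM (control and DKO) were examined for a library far from the rest of its group, and chance alone would pick about 1 in 20. In 3 sets a library stood apart. Ppp1r2 was at 41.7 CPM in control replicate 4 and at 48.1 to 48.8 CPM in the other controls. Kpna1 was at 187.9 CPM in DKO replicate 2 and at 165.9 to 171.9 CPM in the other DKO libraries. Gm15696 was at 0.217 CPM in DKO replicate 1 and at 0.356 to 0.409 CPM in the others.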

How the results depend on the processing

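Bdh1 kept its direction and its call under the 16 other fits, with log2 fold changes from -1.61 to -1.44. The count of called flanking genes, 3 as reported, was 5 with 1 CPM required in 4 libraries, 5 with DESeq2, 7 with limma-voom and 0 to 4 with each library left out, and it was 1 within 1 Mb, 1 within 2 Mb and 6 within 10 Mb. All 3 reported calls were kept under the first 3 of these. With 1 CPM required in 4 libraries, the 5 calls were among 52 tested members, and 467 of 11547 genes (4.04%) were called. Under the replicate block the count of called flanking genes was 0, with 67 calls over all genes against 422 as reported. The adjusted p under the block was 0.158 for Pcyt1a, 0.0789 for Heg1 and 0.154 for Sec22a (edgeR). The numbers of the titles did not pair the libraries (correlations of same-numbered deviations -0.117 to 0.0124, with 0 of 4 controls closest to its own number). No conclusion is drawn from a call lost under the block. Block and correlations used the numbers of the sample titles. The submitted counts of control replicate 4 carry the number 5 instead. That control was closest to DKO replicate 5, so by that number it would match, and a block with it was not run. Over all genes, 749, 314, 342 and 187 were called without control replicates 1, 2, 3 and 4. The count over all genes was 179 to 280 without a DKO library, 1059 with DESeq2 and 996 with limma-voom. The median log2 fold change of the members was 0.138 within 1 Mb, 0.133 within 2 Mb, and -0.022 to 0.106 with each library left out. Their median size, 0.16, was 0.297 within 1 Mb, 0.238 within 2 Mb, 0.126 with 1 CPM required in 4 libraries, 0.201 with summed strands, 0.115 at 10 CPM or more, and 0.154 to 0.204 with each library left out. Some uncalled values changed sign: with limma-voom Gm41442 (1.07), Dlg1 (-0.03), Pak2 (-0.064) and Kpna1 (-0.075), with the block Gm41442 (0.136), and over the fits without 1 library Gm41442 (-0.89 to 0.893), Dlg1 (-0.067 to 0.081), Senp5 (-0.115 to 0.268), Pak2 (-0.101 to 0.187) and Kpna1 (-0.139 to 0.171). The cause was not tested. Low counts limit the 19 members under 1 CPM.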

Other observations

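Known partners of the called genes elsewhere in the genome were looked up after the results were seen. Over all genes, 2.83% passed in edgeR, 7.1% in DESeq2 and 6.68% in limma-voom, and 16% had an unadjusted p under 0.05. The lists below are too short to show a difference from these shares. Of 8 other genes of phosphatidylcholine and phosphatidylethanolamine synthesis, 0 passed in edgeR, DESeq2 or limma-voom and 0 had an unadjusted p under 0.05. Chka averaged 12.3 ± 2.99 against 13.3 ± 0.228 CPM (control against DKO, SD, n = 4 and 5), Chpt1 38.6 ± 2.14 against 39.6 ± 1.54 CPM, and Cept1 96.2 ± 7.47 against 95.5 ± 5.56 CPM. Of 4 tested genes of the complex around Heg1 and its target, 0 passed in edgeR, DESeq2 or limma-voom, and 1, Ccm2, had an unadjusted p under 0.05 (184 ± 15.4 against 208 ± 10.7 CPM). Krit1 averaged 159.7 ± 29 against 164 ± 9.92 CPM, and Klf2, a transcription factor gene that this complex restrains in vessel wall cells, 1770.0 ± 142 against 1912 ± 69.2 CPM. Of 10 other SNARE genes of the early secretory route, 0 passed in edgeR, DESeq2 or limma-voom and 0 had an unadjusted p under 0.05. Sec22b averaged 114 ± 5.35 against 115 ± 4.11 CPM and Sec22c 22.6 ± 3.62 against 19.5 ± 2.58 CPM.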
